A study of Mus musculus with 24 samples.

Results

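Formalin-fixed, paraffin-embedded (FFPE) pieces of furan-treated mouse livers were compared with frozen pieces of the same livers, over all genes of the count table. The members were chosen by label alone: 4 libraries from pieces fixed for 18 h (animals 41, 42, 43 and 44) against 3 libraries from fresh-frozen pieces (animals 41, 43 and 44), which makes 7 of 22 labelled libraries with a column in the table. An equal number on 2 pieces names the same liver. The frozen piece of animal 42 was not analysed here.

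All mice were female B6C3F1 animals, bought at 5 to 6 weeks of age. The furan mice of both groups received 8 mg/kg body weight of furan per day in corn oil by gavage for 21 days, and tissue was taken 4 h after the last dose. Control mice, which are set against the furan mice at the end, received corn oil, and gave 4 FFPE 18 h and 3 fresh-frozen libraries. FFPE RNA came from 1 section of 10 µm with an FFPE column kit, and its RNA integrity number lay between 1.3 and 2.4. Frozen RNA came from about 100 mg of tissue with a midi column kit, and its integrity number was above 8.9. Fixation, embedding, storage, input and extraction kit therefore changed together between the groups, and their parts cannot be told apart. All libraries were enriched for poly(A) RNA with oligo(dT) beads and made with a kit that does not mark the strand.

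Formalin links RNA to proteins and to itself, and RNA recovered from paraffin is usually broken into short pieces. Most messenger RNAs end in a poly(A) tail, added a short way behind a signal in the RNA, most often AATAAA or ATTAAA in DNA letters, and oligo(dT) beads hold the molecule that carries such a tail. When a molecule has been broken, the beads hold the piece at its 3′ end. Some RNAs have no such tail, among them the ribosomal precursor, the RNA parts of RNase P and RNase MRP, small nucleolar RNAs and the messages of replication-dependent histones.

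The ends of several transcripts are printed here to show what genes named below have in common at their ends. Each run is 5′ to 3′ on the strand of the transcript, from the GENCODE M21 annotation (build GRCm38), and capitals mark AATAAA or ATTAAA. The first set is the start and the end of 3 transcripts of the Ugt1a locus on chromosome 1, which encode glucuronosyltransferases that conjugate bilirubin, phenols and drugs. Their first 30 nt differ, and their last 30 nt are the same.
Ugt1a1, positions 1 to 30 of 2224: agcttgagtagatctctggcagcatcagag
Ugt1a6a, positions 1 to 30 of 2297: acccagaattcagatgctggctgatggtgg
Ugt1a9, positions 1 to 30 of 2190: gacaggattactctgggctctgattttacc
Ugt1a1, positions 2195 to 2224: agaacttatcAATAAAttcatataaattgt
Ugt1a6a, positions 2268 to 2297: agaacttatcAATAAAttcatataaattgt
Ugt1a9, positions 2161 to 2190: agaacttatcAATAAAttcatataaattgt

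The second set holds the ends of 2 neighbouring cytochrome P450 genes of chromosome 5, which are identical, the ends of 3 short messages that were more abundant in FFPE libraries (a subunit of complex III on chromosome 10, apolipoprotein C-I on chromosome 7 and a subunit of complex I on chromosome 7), and the ends of 2 short RNAs that carry no tail, from chromosomes 14 and 4.
Cyp3a41a, positions 2031 to 2060: atgtaAATAAAcacttATTAAAaatcctca
Cyp3a41b, positions 2035 to 2064: atgtaAATAAAcacttATTAAAaatcctca
Uqcr11, positions 416 to 445: cagcATTAAAccttattcttatgccttgga
Apoc1, positions 503 to 532: cagaccAATAAAaaacgtgtagaaggcaaa
Ndufa3, positions 486 to 515: gcAATAAAcggtgacctagacaagtgtaca
Rpph1, positions 290 to 319: ataacccaattcagactactctcccccgcc
Rmrp, positions 252 to 281: acacggggctcattctcagcgcggctacac
Neither of the last 2 holds a signal. On the transcript strand, 65.8% of the 23621 matched genes held 1 of these 2 signals in their last 40 nt. The share was 75.9% among genes that were higher in FFPE libraries, 77.5% among those that were lower and 75.9% among those that did not pass the test.

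The FFPE libraries held 16269854, 17090762, 22494012 and 18465067 counts (animals 41 to 44), and the frozen libraries 58048387, 40698987 and 33101755 counts (animals 41, 43 and 44). The groups did not overlap in depth, and the frozen libraries were the deeper. After all libraries had been thinned to the smallest total, 13672 to 14083 genes had at least 5 counts in an FFPE library, against 13337 to 13533 genes in a frozen library. The ribosomal precursor Rn45s took between 7.76% and 16.5% of the counts in the FFPE libraries, with the highest share in animal 42, against 0.129% to 0.520% in the frozen libraries. Summed over 7 hepatocyte markers, the level was 137314 to 154526 CPM (counts scaled to a common library size, with TMM factors) in FFPE and 143242 to 154357 CPM in frozen pieces, so both held the labelled tissue. Replicates are separate animals.

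Most genes differed between FFPE and frozen pieces of furan livers. With edgeR's quasi-likelihood F test on 13411 tested genes and a Benjamini-Hochberg adjusted p under 0.05, 4930 genes (36.8%) were higher and 4855 genes (36.2%) lower in FFPE 18 h livers. Of these, 2853 were at least 2-fold higher and 2205 at least 2-fold lower. Counts of list members that rose or fell, given below, are to be read against the shares of 36.8% and 36.2%. Scaling by library totals alone gave 3913 higher and 5864 lower genes, and the median log2 difference of all tested genes was -0.22 with it and 0.02 with TMM. In 9566 genes (71.3%) the 4 FFPE values did not overlap the 3 frozen values. Differences below are fitted log2 values of FFPE over frozen ± SE, where each SE was derived from the log2 value and its F statistic and is approximate where a group holds few counts.

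The 12 largest rises, among the 3568 risen genes that met the conditions for naming, included RNAs with no tail, opposite-strand transcripts and short messages. Rpph1, the RNA of RNase P, had 10.8, 91.4, 18.8 and 23.9 CPM in FFPE pieces, against 0.0323, 0.0885 and 0.267 CPM in frozen pieces, a difference of 8.28 ± 0.99 (adjusted p = 1.18e-05). Rmrp, the RNA of RNase MRP, which cuts the ribosomal precursor, had 9.58, 71.5, 11.7 and 16.6 CPM in FFPE pieces, against 0.145, 0.199 and 0.534 CPM in frozen pieces, a difference of 6.64 ± 0.89. In both, animal 42 was far above the other FFPE libraries, and the groups did not overlap. Among the 12, Rpph1, Nrp, Rmrp, Dmbt1, Prkag2os1, Toporsos, Nr2c2ap and Ncam1 had only 10 to 51 counts over the frozen libraries together. They passed the filter for testing through the FFPE group alone. The direction of their difference was thus set by the filter, and their adjusted p does not bear on it.

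Rn45s itself had 87080, 190823, 79832 and 102804 CPM in FFPE pieces, against 1213, 1398 and 4596 CPM in frozen pieces, a difference of 5.58 ± 0.55 (adjusted p = 2.06e-06). Prkag2os1 (6.39 ± 0.31) and Toporsos (5.32 ± 0.21) are named as opposite-strand genes of Prkag2 and Topors, and without strand their reads cannot be told apart from reads of those partners. Ndufb4, a complex I subunit, had 22.8 to 24.3 CPM in FFPE pieces, against 0.484 to 0.708 CPM in frozen pieces (5.23 ± 0.16). The ribosomal protein genes Rpl39 (5.2 ± 0.14) and Rpl37a (4.89 ± 0.16) rose too. Both have many processed copies in the mouse genome, so their counts are uncertain. Nr2c2ap, which encodes a protein bound to a nuclear receptor, differed by 4.90 ± 0.22. The entry named Nrp matched no reference transcript, and differed by 7.56 ± 0.28.

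Dmbt1 and Ncam1 were the long messages among the 12, with 6272 and 6050 nt. Dmbt1, a secreted scavenger receptor of epithelia, had 7.52, 3.92, 55.1 and 25.3 CPM in FFPE pieces, against 0.0484, 0.708 and 0.0534 CPM in frozen pieces (6.47 ± 1.05), with animal 43 highest and animal 42 lowest. Ncam1, the neural cell adhesion molecule, had 4.32, 8.11, 7.05 and 9.28 CPM in FFPE pieces, against 0.355, 0.0664 and 0.320 CPM in frozen pieces (4.81 ± 0.41).

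**Figure D1:**
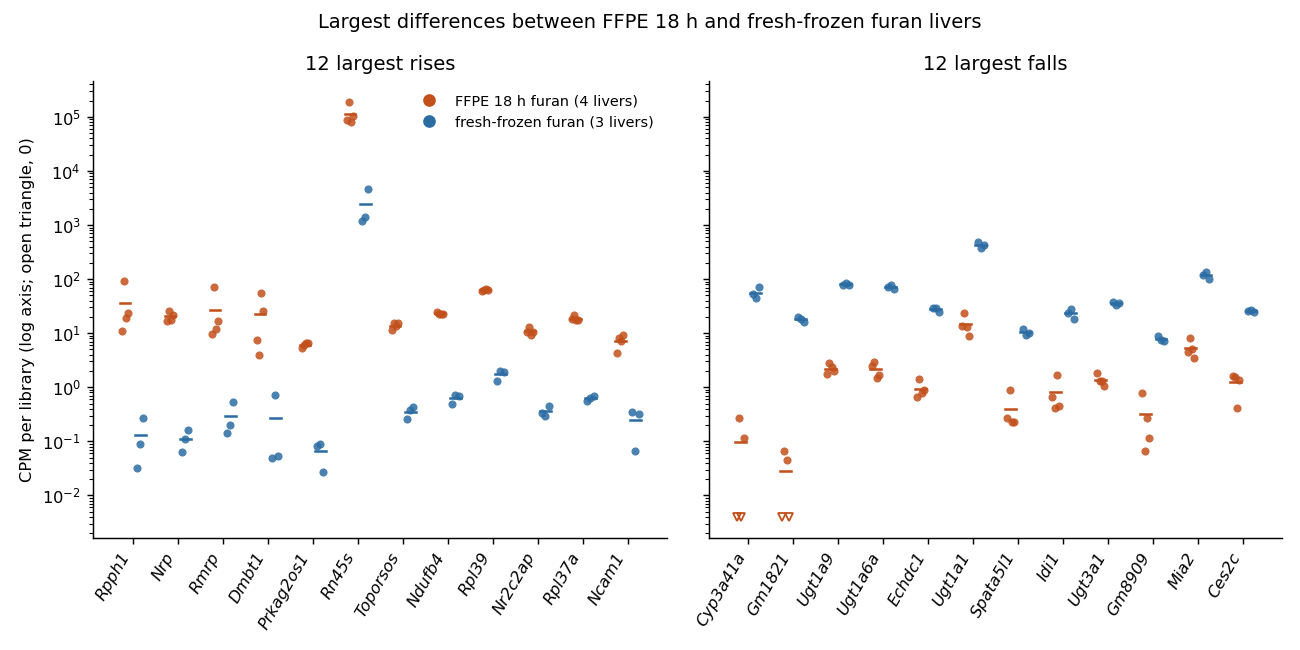
CPM per library (log axis) of the 12 genes that rose most and the 12 that fell most in FFPE 18 h furan livers (left of each pair, 4 livers) against fresh-frozen furan livers (right, 3 livers); lines are means and open triangles stand for 0. No gene overlaps between the groups; the FFPE values of Rpph1, Rmrp and Dmbt1 spread most, while Ndufb4 and Rpl39 are tight.

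The 12 largest falls, among 4153 fallen genes that met the conditions, included 6 members of drug-metabolising families. Cyp3a41a, a P450 expressed in female liver, had 0, 0.270, 0 and 0.113 CPM in FFPE pieces, against 52.5, 45.4 and 71.3 CPM in frozen pieces. These were 6 counts over the 4 FFPE libraries and 7971 counts over the 3 frozen libraries (-9.28 ± 0.36, adjusted p = 7.26e-10). Cyp3a41b, whose printed end is the same, had no count in any of these libraries. The predicted gene Gm1821, annotated as a transcribed processed pseudogene, had 2 counts in the FFPE libraries together, against 2669 in the frozen libraries together. Per library total it was 752-fold lower in FFPE pieces, with a 95% exact counting interval of 208 to 6215. As FFPE over frozen the ratio was 0.00133, and 0.000863 without FFPE animal 42. Sequence found in other genes on the same strand covers 91% of the last 300 nt of Gm1821, so its counts are uncertain as its level. Among the 12, Cyp3a41a, Gm1821, Idi1, Spata5l1 and Gm8909 had only 2 to 61 counts over the 4 FFPE libraries. They passed the filter for testing through the frozen group alone. The direction of their difference was thus set by the filter, and their adjusted p does not bear on it.

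Ugt1a9 had 1.73, 2.77, 2.33 and 2.04 CPM in FFPE pieces, against 78.4, 84.8 and 78.2 CPM in frozen pieces (-5.18 ± 0.12, adjusted p = 5.15e-11). Ugt1a6a (-5.10 ± 0.16) and Ugt1a1 (-4.85 ± 0.25) fell with it, and so did Ugt3a1 (-4.71 ± 0.15), of a related sugar transferase family, and the carboxylesterase Ces2c (-4.44 ± 0.25). Idi1, which isomerises isopentenyl diphosphate in sterol synthesis, had 0.405 to 1.69 CPM in FFPE pieces, against 18.5 to 28.3 CPM in frozen pieces (-4.77 ± 0.32). Echdc1, an ethylmalonyl-CoA decarboxylase, fell by 4.90 ± 0.18 on the log2 scale. Mia2 (-4.49 ± 0.20), Spata5l1 (-4.77 ± 0.31) and Gm8909 (-4.68 ± 0.38) complete the 12.

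Transcript length ordered the differences across the whole table. The length of a gene was that of its longest transcript with a RefSeq link, or of its longest where none had one. Which form liver held was not tested. Among 738 tested genes with transcripts over 500 and up to 1000 nt, 643 were higher and 39 lower in FFPE pieces, with a median log2 difference of 2.22. Among 1649 genes with transcripts over 6000 nt, 164 were higher and 1161 lower, with a median of -0.85. The medians between were 0.92 up to 2000 nt, 0.18 up to 3000 nt, -0.24 up to 4000 nt and -0.56 up to 6000 nt. Across 13321 genes with a length, which share the same 7 libraries and are no independent replicates, Spearman's rho between log2 difference and length was -0.60. It was -0.54 for coding length, -0.38 for the length of the 3′ untranslated region, -0.39 for the number of exons and 0.26 for GC content.

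The order held in every FFPE library. Against the mean of the frozen libraries, rho with length was -0.60 in animal 41, -0.57 in animal 42, -0.59 in animal 43 and -0.60 in animal 44. Genes of up to 1000 nt had medians of 1.85 to 1.88 in these libraries, and genes over 6000 nt medians of -0.87 to -0.74. Set against the frozen piece of the same liver, rho was -0.60, -0.60 and -0.59 in animals 41, 43 and 44. After an offset for length and GC content per library, which was chosen after the data had been seen, 7866 of 13321 genes (59.0%) passed the test, and rho with length was 0.06. Of 9717 genes that had passed without the offset and had a length, 5645 passed with the same sign under it and 826 with the opposite sign. Of the genes described below, Cdkn1a, Nr1d2, Ier2, Fosl2, Aldoa, Reln, Pgk1, Olfr1034 and Snhg12 no longer passed under it, besides those for which this is said in place.

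**Figure D2:**
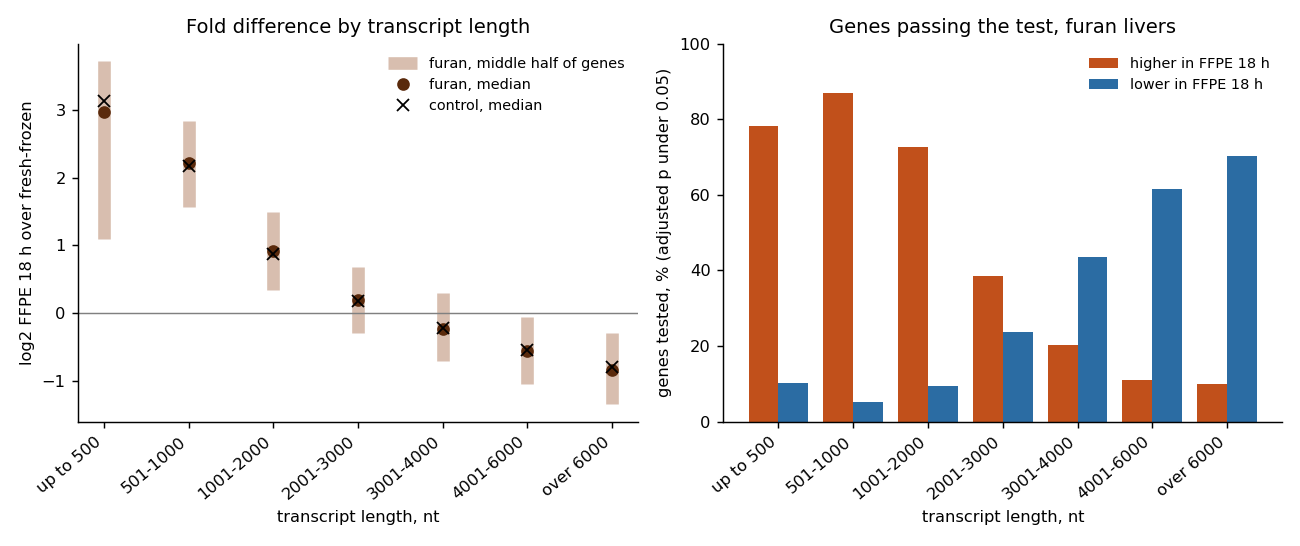
Left, median log2 difference (FFPE 18 h over fresh-frozen) of tested genes by transcript length, with the middle 50% of genes as bars, in furan livers (circles) and control livers (crosses); right, percent of tested genes in furan livers that were higher or lower at an adjusted p under 0.05. The furan median falls with each longer class, and is -0.85 above 6000 nt.

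The shares of all counts moved likewise. Transcripts of up to 1000 nt took 9.81% ± 0.555 of the counts in FFPE libraries and 2.06% ± 0.0420 in frozen libraries (SD, n = 4 and 3). Transcripts over 4000 nt took 13.8% ± 0.355 in FFPE libraries and 28.6% ± 0.438 in frozen libraries. Albumin, the main plasma protein, took 8.98% ± 0.566 in FFPE and 12.3% ± 0.274 in frozen libraries. Groups did not overlap for 12 of 14 classes compared, and the exact two-sided permutation test gave p = 0.0571 for each of them, the smallest that 4 against 3 libraries allow, and 0.0667 after adjustment. The 22 genes of secreted hepatocyte proteins took 22.9% ± 1.08 in FFPE and 22.7% ± 0.267 in frozen libraries (exact p = 0.8), a difference of 0.215 percentage points that was -0.185 without FFPE animal 41. With Rn45s taken out of the library totals, it was 2.86 percentage points and the groups did not overlap (exact p = 0.0571). Its members are described below.

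**Figure D3:**
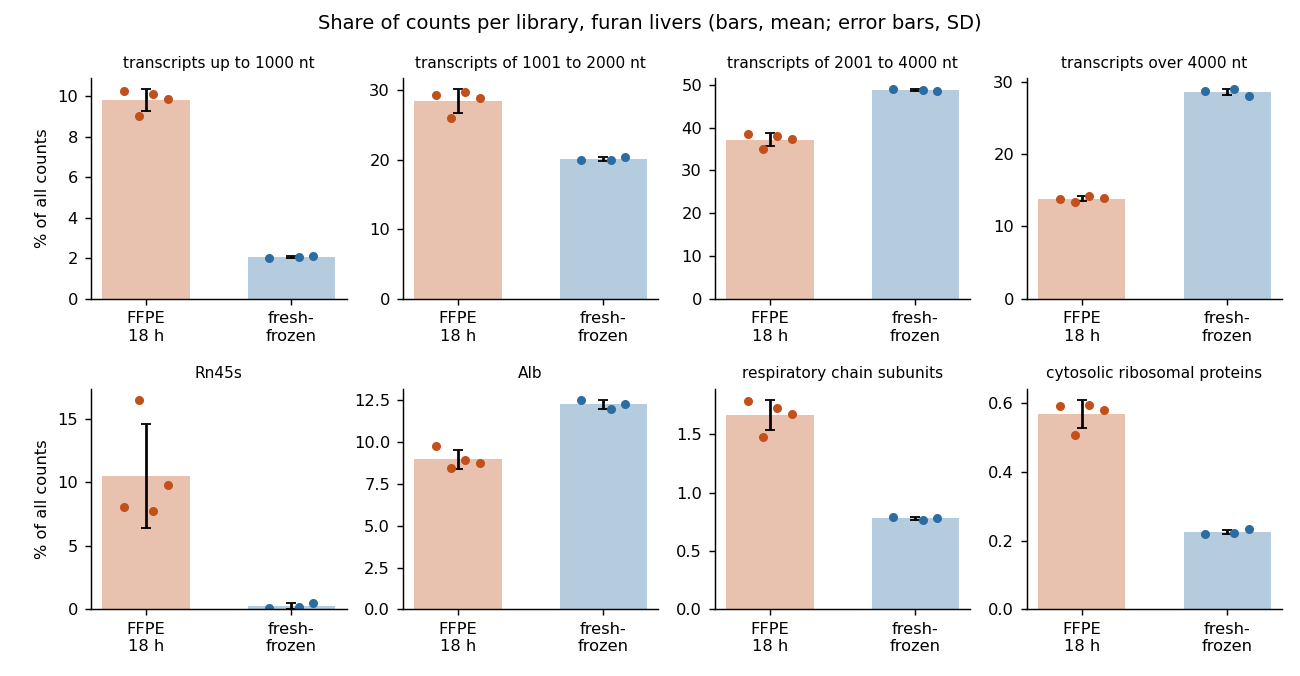
Percent of all counts taken by 4 transcript length classes, Rn45s, Alb and 2 gene lists in FFPE 18 h (left bar, 4 libraries) and fresh-frozen (right bar, 3 libraries) furan livers; bars are means with SD and points are libraries. No points overlap between the groups in any panel, and animal 42 has the highest Rn45s share at 16.5%.

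In lists of RNAs with no poly(A) tail, or with much of their RNA kept in the nucleus, more members rose than fell in FFPE pieces before the offset. For some of these members the filter for testing set the direction, as said below. Of 13 members of the list of other non-polyadenylated RNAs in the table, 5 were tested, and all 5 rose, where 36.8% of all genes did. Rpph1, Rmrp and Vaultrc5 were near 0 in frozen pieces and passed the filter for testing through the FFPE group alone. Their direction was thus set by the filter, and these shares cannot be set against each other. Besides Rn45s, Rpph1 and Rmrp, the vault RNA Vaultrc5 had 193 counts in FFPE libraries together, against 2 in frozen libraries together, a ratio per total of 171 with a 95% exact counting interval of 46.8 to 1424. Animal 42 gave 122 of these counts, and the ratio without it was 81.8 (21.8 to 688). After the length and GC offset its call was lost (adjusted p = 0.0637). Without Rn45s, the class took 0.00208%, 0.0155%, 0.00325% and 0.00425% of the counts in FFPE animals 41 to 44, against 0.0000362%, 0.0000590% and 0.000121% in frozen pieces.

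Small nucleolar and Cajal body RNAs guide changes to ribosomal and spliceosomal RNA, and most lie in introns of other genes. Of 26 tested, 13 rose and 4 fell, with a median of 0.94 that was -3.27 after the offset for length and GC. With that offset 1 passed as higher and 19 as lower. Snord17 had 1.4, 7.84, 1.88 and 1.64 CPM in FFPE pieces, against 0.0323, 0.0221 and 0.0267 CPM in frozen pieces. Its difference was 6.63 ± 0.88, again with animal 42 highest. Snord104 rose by 3.74 ± 0.22, and Snora33 by 3.71 ± 0.51 at levels below 1 CPM, and both were on the other side of 0 after that offset (-0.96 and -0.21). Snora20 fell, with 0.170 to 0.532 CPM in FFPE pieces against 3.56 to 5.07 CPM in frozen pieces. Snord17 and Snora33 passed the filter for testing through the FFPE group alone, and Snora20 through the frozen group alone. Their direction was thus set by the filter, so the numbers that rose and fell cannot be set against the shares of all genes. The summed share of counts of the small nucleolar and Cajal body RNAs overlapped between the groups (exact p = 0.114). It did not with Rn45s taken out of the library totals (exact p = 0.0571). The difference of 0.00134 percentage points was 0.000712 without FFPE animal 42.

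Of 7 tested replication-dependent histones, 4 rose and 1 fell. Hist1h2bc, an H2B gene, had 125 to 139 CPM in FFPE pieces, against 21.0 to 22.7 CPM in frozen pieces (2.58 ± 0.08). The linker histone gene Hist1h1c had 2.79, 3.31, 1.42 and 4.25 CPM in FFPE pieces, against 17, 17.9 and 18.8 CPM in frozen pieces (-2.63 ± 0.24). Hist1h4h, which rose, had 18 counts over the frozen libraries together. It passed the filter for testing through the FFPE group alone, so its direction was set by the filter. Near-identical histone copies make such counts uncertain. The annotated transcripts of Hist1h1c, Hist1h4h and Hist2h2be, though not that of Hist1h2bc, hold a poly(A) signal in their last 40 nt. Whether the counted histone RNAs had a tail was not tested.

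Of 17 tested long non-coding RNAs retained in the nucleus or hosting small nucleolar RNAs, 13 rose and 1 fell, with a median of 1.62. Malat1, the abundant nuclear speckle RNA, had 1243, 2110, 1449 and 1131 CPM in FFPE pieces, against 196, 191 and 217 CPM in frozen pieces (2.88 ± 0.19). Its annotated transcript of 6983 nt falls in the length class that was mostly lower. The snoRNA hosts Gas5 (2.24 ± 0.11), Snhg12 (2.70 ± 0.17) and Snhg1 (2.05 ± 0.14) also rose, though Snhg1 lay at -0.37 after the offset, and Snhg12 at -0.02 after the offset with the animal as a block. By annotation, 67 of 105 tested lincRNAs rose and 15 fell, and 70 of 113 antisense genes rose and 18 fell. Of 12822 protein-coding genes, 4597 rose and 4761 fell. The medians of lincRNAs and antisense genes were 1.34 and 1.26, and 0.39 and 0.27 after the length and GC offset.

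Several families with mostly short messages had more members higher than lower. Of 77 tested respiratory chain subunits encoded in the nucleus, 69 rose and 3 fell, with a median log2 difference of 2.40 (0.12 after the length and GC offset). Ndufa3, of complex I, had 190 to 199 CPM in FFPE pieces, against 11.2 to 12.1 CPM in frozen pieces (4.05 ± 0.08, adjusted p = 4.83e-11). Ndufa7 (3.88 ± 0.09) belongs to the same complex. Uqcr10 of complex III had 292 to 302 CPM in FFPE pieces and 21.3 to 24.3 CPM in frozen pieces (3.72 ± 0.08), and Atp5e of the ATP synthase had 377 to 408 CPM in FFPE pieces and 28.8 to 31.9 CPM in frozen pieces (3.72 ± 0.08). The whole list took 1.67% ± 0.131 of counts in FFPE and 0.781% ± 0.0141 in frozen libraries.

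Of 81 tested cytosolic ribosomal protein genes, 52 rose and 17 fell, with a median of 1.35, which was -0.67 after the offset. Rps26 had 147 to 161 CPM in FFPE pieces, against 11.1 to 12 CPM in frozen pieces (3.72 ± 0.08). Rps20 (3.47 ± 0.08) rose as well, and so did Rpl14 (3.30 ± 0.09). The annotated transcript that set the length of Rps20 here has 3706 nt. Of these, 357 nt are coding and 3170 nt lie in the 3′ untranslated region, and whether liver held this form was not tested. Of 38 tested proteasome subunits, 31 rose and 3 fell, with a median of 0.80 that was -0.24 after the offset. Among them Psmb6, Psmb1, Psmb4 and Psmb2, all subunits of the catalytic core's β rings, differed by 1.86 to 2.06. After the offset Psmb6 was at -0.23, and Psmb2 lost its call (adjusted p = 0.983).

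Translation factors of the TOP class, whose messages share a pyrimidine-rich start, split. Of 17 tested, 10 rose and 6 fell. Eif3f had 156 to 167 CPM in FFPE pieces, against 37.6 to 42.8 CPM in frozen pieces (2.02 ± 0.08). Pabpc1, the protein that coats poly(A) tails, had 30.3, 33.4, 29.6 and 32.6 CPM in FFPE pieces, against 240, 217 and 195 CPM in frozen pieces (-2.79 ± 0.09). Eif4a2 fell (-1.91 ± 0.08) and Eef1d rose (1.73 ± 0.08).

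Of 22 tested secreted hepatocyte proteins, 14 rose and 4 fell, with a median of 0.76 that was -0.38 after the length and GC offset. Apoc1 had 9573, 8704, 8991 and 9260 CPM in FFPE pieces, against 502, 509 and 573 CPM in frozen pieces (4.11 ± 0.09, adjusted p = 5.15e-11). Apoc3 (3.31 ± 0.09), Apoa2 (3.01 ± 0.10) and transthyretin, Ttr (2.83 ± 0.08), rose with it, and Apoa2 lost its call after the offset (0.0300, adjusted p = 0.757). Apob, the very long message of the lipoprotein scaffold, with an annotated transcript of 13934 nt, had 2471 to 2790 CPM in FFPE pieces, against 6729 to 7382 CPM in frozen pieces (-1.42 ± 0.08). Apoa1 rose by 1.30 ± 0.11 and was at -0.48 after the offset. Alb had 91752 to 105725 CPM in FFPE pieces, against 107994 to 117504 CPM in frozen pieces. The difference of -0.20 ± 0.09 did not pass (adjusted p = 0.0573). It passed as lower in 10 alternatives, among them the length and GC offset, the animal as a block, DESeq2, library totals alone and leaving out FFPE animal 41.

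The metallothioneins Mt1 and Mt2, short metal-binding proteins named here after their values had been seen, kept the order of the livers. Mt1 had 710, 495 and 270 CPM in the FFPE pieces of animals 41, 43 and 44, against 38.7, 22.8 and 15.5 CPM in their frozen pieces, so animal 41 was highest and animal 44 lowest in both kinds of piece. The FFPE piece of animal 42 had 706 CPM. The difference was 4.40 ± 0.39 for Mt1 and 3.97 ± 0.36 for Mt2.

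Genes that share their transcript end with another gene had lower medians than other genes of like length. An end was the last 300 nt of a transcript, and it was called shared where 50-nt words found in another gene covered at least 90% of it. Among 55 genes over 1500 and up to 2500 nt with an end shared on the same strand, the median was -0.02, with 17 higher and 23 lower. Among 2560 genes of that length with no shared end, the median was 0.51, with 1478 higher and 345 lower. For ends that overlap a gene on the opposite strand only, 106 genes of that length had a median of 0.06. Up to 1500 nt the medians were 1.20 for shared ends, 0.94 for opposite-strand overlaps and 1.66 for neither. The difference between these classes was not tested.

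The Ugt1a locus holds such ends. Its transcripts each have a first exon of their own and then share the remaining exons. Between pairs of them, the shared 3′ run was at least 1313 nt long, while Ugt1a1, Ugt1a6a and Ugt1a9 had no 50-nt word in common in their first 250 nt. Of the 7 tested members, 6 fell. Ugt1a1 had 13.6, 24.1, 13.1 and 9.06 CPM in FFPE pieces, against 480, 384 and 425 CPM in frozen pieces. Ugt1a6a had 1.46 to 2.90 CPM in FFPE pieces, against 65.4 to 77.4 CPM in frozen pieces. Ugt1a6b had 0.778 to 2.50 CPM in FFPE pieces, against 30.8 to 35.8 CPM in frozen pieces (-4.39 ± 0.23), and Ugt1a5 had 2.79 to 5.40 CPM in FFPE pieces, against 47.0 to 76.4 CPM in frozen pieces (-4.06 ± 0.23).

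Ugt1a10, at 1.60 to 1.70 CPM in frozen pieces, fell by 2.42 ± 0.56 on the log2 scale. Ugt1a2 rose, with 0.641 to 1.15 CPM in FFPE pieces against 0.0534 to 0.177 CPM in frozen pieces (2.86 ± 0.47). Ugt1a2 had 18 counts over the frozen libraries and passed the filter for testing through the FFPE group alone. Ugt1a10 had 21 counts over the FFPE libraries and passed it through the frozen group alone. The direction of both was thus set by the filter. The members other than Ugt1a1, Ugt1a6a and Ugt1a9 were chosen after their values had been seen. How the authors' counting treated reads in exons that belong to several genes was not given in the sources used here, so these counts are uncertain as levels of each gene. Echdc1 and the splicing factor gene Srsf4 (1.19 to 1.89 CPM in FFPE pieces, 15 to 17.5 CPM in frozen pieces, -3.40 ± 0.16) have ends covered in this way by a gene on the opposite strand only.

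Cps1, the entry enzyme of the urea cycle, had 1802 to 2120 CPM in FFPE pieces, against 6266 to 6501 CPM in frozen pieces (-1.74 ± 0.08). In its list of urea cycle and amino acid enzymes, 9 of 22 rose and 7 fell. Tdo2, which opens the ring of tryptophan, was lower (-1.38 ± 0.08), and Fah, the last enzyme of tyrosine breakdown, was higher (0.81 ± 0.07, -0.10 after the offset). Of 24 matrix genes, 8 rose and 6 fell. Fn1, fibronectin, had 964 to 1112 CPM in FFPE pieces, against 3667 to 4389 CPM in frozen pieces (-1.94 ± 0.09).

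Of 23 tested genes of cholesterol synthesis and its control, 7 rose and 15 fell, with a median of -0.73. Stard4, a sterol carrier, had 26.3 to 33.8 CPM in FFPE pieces, against 176 to 195 CPM in frozen pieces (-2.63 ± 0.09). Srebf2, the transcription factor that drives the pathway, had 23.7 to 27.2 CPM in FFPE pieces, against 99.3 to 121 CPM in frozen pieces (-2.12 ± 0.09). Ebp, an isomerase of the pathway with a short message, rose (1.68 ± 0.09). In fatty acid oxidation, 8 of 20 rose and 9 fell. Cpt1a, which loads fatty acids for mitochondria, fell (-1.18 ± 0.11), as did Acadm (-1.17 ± 0.12), while Hadhb rose (0.98 ± 0.09).

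Of 19 circadian clock genes, 2 rose and 13 fell, with a median of -0.49. After the length and GC offset 2 passed as higher and 5 as lower, with a median of -0.18. In 1 model of 6 groups 0 passed as higher and 7 as lower. The median transcript length of this list was 4236 nt. Bhlhe40 (-1.27 ± 0.11) and the nuclear receptor gene Nr1d2 (-0.98 ± 0.09) fell by about 2-fold, and so did Rora (-1.03 ± 0.10), which lay at 0.17 after the offset. Of 309 zinc finger genes, 74 rose and 108 fell, with a median of -0.11 that was 0.19 after the offset. Of 31 P450s of drug metabolism, 6 rose and 11 fell. Among them Cyp2c68 (-0.80 ± 0.08) and Cyp2c40 (-0.80 ± 0.08) fell and Cyp2d10 rose (0.78 ± 0.08, -0.07 after the offset). These are members of families of close copies.

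Of 28 splicing factor and RNA-binding protein genes, 15 rose and 12 fell. Hnrnpa1 had 16.5 to 26.8 CPM in FFPE pieces, against 1.35 to 1.99 CPM in frozen pieces (3.7 ± 0.21), while Hnrnpa2b1 (-1.0 ± 0.07) and Srsf5 (-1.14 ± 0.09) fell. Of the 3 tested olfactory and vomeronasal receptors, Olfr1033 (-0.96 ± 0.26) and Olfr1034 (-1.28 ± 0.38) fell.

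**Figure D4:**
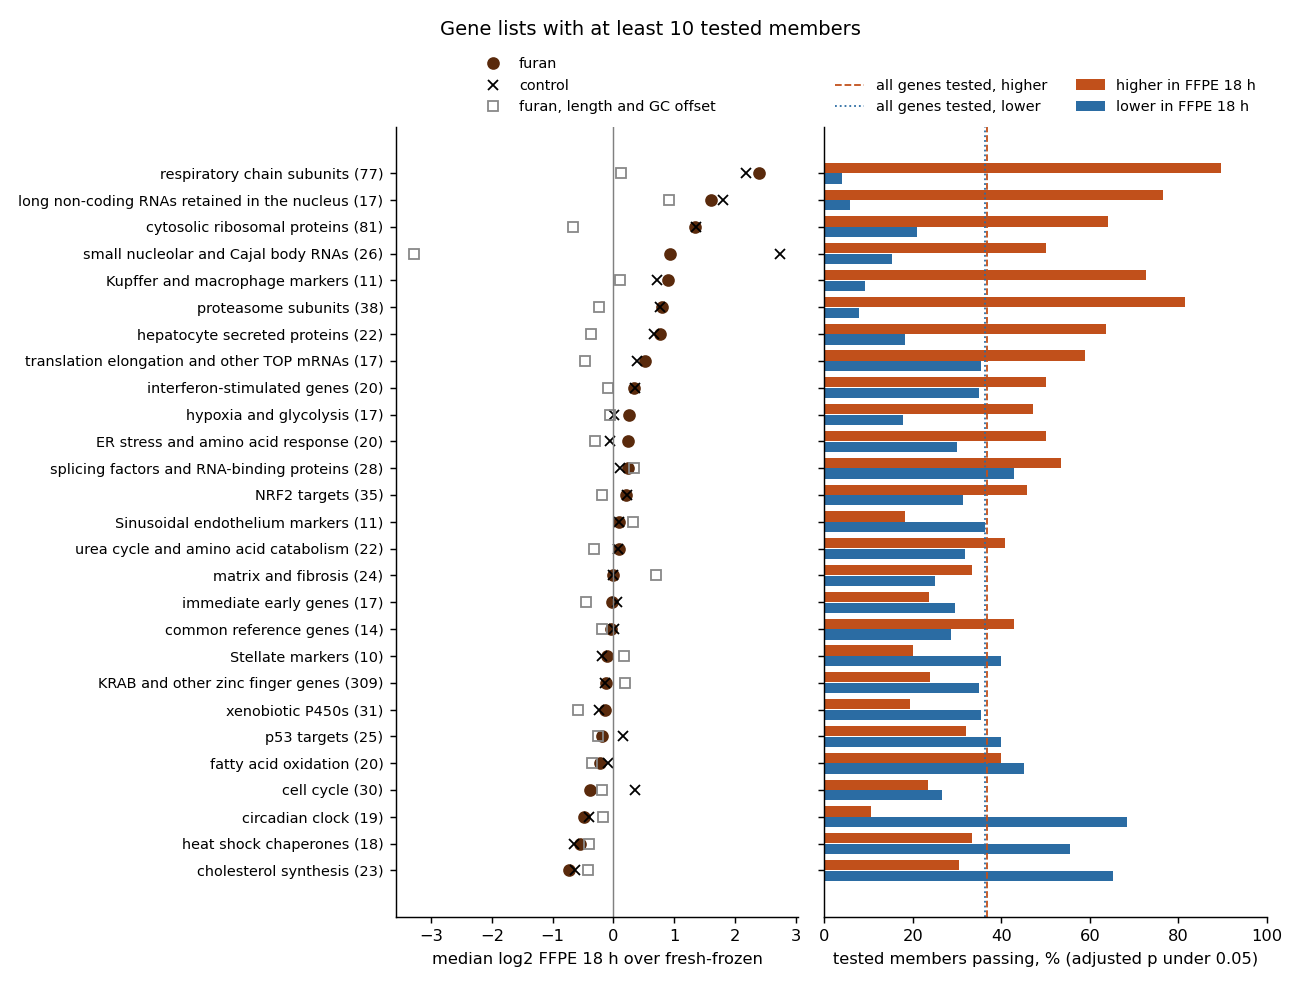
Gene lists with at least 10 tested members (number in brackets), ordered by the median log2 difference of FFPE 18 h over fresh-frozen furan livers; left, medians in furan livers, control livers and furan livers after the length and GC offset, and right, percent of tested members higher or lower. Respiratory chain subunits stand at the top with a median of 2.40 and cholesterol synthesis genes at the bottom with -0.73.

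Furan itself is oxidised in hepatocytes by CYP2E1 to a reactive dialdehyde that binds thiols, and genes of the NRF2 and p53 pathways are the usual readouts of such an exposure. Cyp2e1 had 4236 to 5012 CPM in FFPE pieces, against 4701 to 5150 CPM in frozen pieces, with overlap, and did not pass (-0.10 ± 0.08, adjusted p = 0.296). It passed as lower with the animal as a block, with library totals alone and with the length and GC offset, with and without the block. Of 35 NRF2 targets, 16 rose and 11 fell, with a median of 0.21, which was -0.03 with library totals alone and -0.19 after the length and GC offset.

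Gstm1, a glutathione transferase, had 2990 to 3410 CPM in FFPE pieces, against 866 to 885 CPM in frozen pieces (1.87 ± 0.08, adjusted p = 1.25e-09). Gstm6 rose (1.74 ± 0.09), and so did Taldo1 of the pentose phosphate pathway (1.21 ± 0.07, -0.19 after the offset). Abcc2, the canalicular exporter of glutathione conjugates, had 305 to 332 CPM in FFPE pieces, against 1054 to 1334 CPM in frozen pieces (-1.88 ± 0.09). Nqo1, a quinone reductase, had 19.6, 16.9, 20 and 24.6 CPM in FFPE pieces, against 14.2, 13.7 and 14.0 CPM in frozen pieces (0.54 ± 0.12, -0.23 after the offset). Its call was lost with library totals alone.

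Of 25 p53 targets, 8 rose and 10 fell. Bax, which permeabilises mitochondria, had 48.6 to 58.4 CPM in FFPE pieces, against 15.3 to 16.3 CPM in frozen pieces (1.76 ± 0.09, -0.41 after the offset). Cdkn1a, the cell cycle inhibitor p21, had 39.8, 38.1, 49.4 and 40.4 CPM in FFPE pieces, against 25.1, 25.8 and 23.3 CPM in frozen pieces (0.76 ± 0.10). Trp53inp1 (-1.96 ± 0.13), the nuclease gene Aen (-1.92 ± 0.16) and Sesn2 (-2.52 ± 0.21) fell. Mdm2, the ligase that degrades p53, differed by 0.26 ± 0.08 (adjusted p = 0.0133) and lost its call with library totals alone and without frozen animal 43. Ccnd1, a cyclin that starts the cell cycle, had 164 to 192 CPM in FFPE pieces, against 184 to 204 CPM in frozen pieces (-0.12 ± 0.08, adjusted p = 0.169). It passed as lower with the animal as a block and with library totals alone, and as higher with the offset and the block (0.13).

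Stress lists gave mixed directions, as did all tested genes, of which 36.8% rose and 36.2% fell. Of 18 heat shock chaperones, 6 rose and 10 fell, with a median of -0.55. Hsp90aa1 had 18.1 to 23.3 CPM in FFPE pieces, against 64.5 to 75.7 CPM in frozen pieces (-1.77 ± 0.10), and Hspa8 (-1.63 ± 0.10), Hspd1 (-1.26 ± 0.07) and Hsp90ab1 (-0.97 ± 0.07) fell as well. In the ER stress and amino acid list, 10 of 20 rose and 6 fell. Atf4, its transcription factor, had 190 to 209 CPM in FFPE pieces, against 60.6 to 72.9 CPM in frozen pieces (1.58 ± 0.08). Manf rose (1.84 ± 0.16) and the disulphide isomerase gene Pdia4 fell (-1.24 ± 0.10).

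Immediate early genes answer stimuli without new protein synthesis. Of 17 tested, 4 rose and 5 fell. Ier2 (1.18 ± 0.08) and Klf2 (2.17 ± 0.18) rose, and Fosl2 (-0.94 ± 0.15) and Klf6 (-1.13 ± 0.18) fell. In the hypoxia and glycolysis list, 8 of 17 rose and 3 fell, and Aldoa was among those that rose (1.1 ± 0.09). Of 20 interferon-stimulated genes, 10 rose and 7 fell. Ifit1 rose (1.46 ± 0.21), and the GTPase gene Gbp3 fell (-0.88 ± 0.15). Of 30 cell cycle genes, 7 rose and 8 fell, with Tk1 higher (1.32 ± 0.15) and Pcna lower (-1.97 ± 0.18). Tk1 lost its call after the offset (0.21), and Pcna in 1 model of 6 groups.

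Cell type markers moved too, and in bulk tissue fewer cells of a type and less RNA per cell cannot be told apart. Of 11 Kupffer cell and macrophage markers, 8 rose and 1 fell, and their sum was 511 to 664 CPM in FFPE pieces, against 289 to 364 CPM in frozen pieces. The complement genes C1qa, C1qb and C1qc differed by 1.88 ± 0.10, 2.07 ± 0.16 and 2.01 ± 0.12, and C1qa (0.0577) and C1qb (0.38) lost their calls after the length and GC offset. The list's median of 0.89 was 0.11 after the length and GC offset. Sinusoidal endothelial markers split, with 2 of 11 higher and 4 lower. Clec4g, a lectin with a short message, had 99.1 to 112 CPM in FFPE pieces, against 27.9 to 32.4 CPM in frozen pieces (1.74 ± 0.08). Kdr, the VEGF receptor with a long message, had 9.17 to 11.9 CPM in FFPE pieces, against 49.5 to 61.1 CPM in frozen pieces (-2.39 ± 0.11).

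Of 10 stellate cell markers, 2 rose and 4 fell. Acta2, the smooth muscle actin, had 14.0 to 25.3 CPM in FFPE pieces, against 0.678 to 1.25 CPM in frozen pieces (4.45 ± 0.25). Reln (-1.08 ± 0.09) and Hgf (-2.32 ± 0.23) fell. Of 6 tested cholangiocyte markers, 4 rose and 1 fell. Pericentral hepatocyte markers summed to 6110 to 6823 CPM in FFPE pieces, against 7032 to 7471 CPM in frozen pieces, and 1 of 7 rose and 4 fell. Periportal markers summed to 5529 to 6255 CPM in FFPE pieces, against 10465 to 10950 CPM in frozen pieces, and 2 of 7 rose and 2 fell. The list's median was 0.08 (-0.16 with library totals alone, -0.60 after the offset), and Cps1, described above, averaged 1918 CPM in FFPE pieces and 6392 CPM in frozen pieces of these sums.

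Markers of other cells that a liver section can carry in small number did not all move one way. Of 2 tested mesothelium markers neither passed, with a sum of 1.64 to 2.86 CPM in FFPE pieces, against 0.753 to 3.95 CPM in frozen pieces. Upk3b, one of them, passed as lower with the animal as a block (-1.27), with library totals alone and without frozen animal 43. Of 6 tested T and NK cell markers 5 rose, with a sum of 7.98 to 10.2 CPM in FFPE pieces, against 2.26 to 2.61 CPM in frozen pieces. All 3 tested B and plasma cell markers rose, of which 1 passed after the length and GC offset and 0 in 1 model of 6 groups. Of 6 listed neutrophil markers 2 were tested, and both rose, of which 0 passed after the offset. The list summed to 1.33 to 4.53 CPM in FFPE pieces, against 0.267 to 0.332 CPM in frozen pieces. Of 12 skeletal muscle markers, 4 were tested and 3 rose, with a sum of 3.94 to 47.3 CPM in FFPE pieces, against 1.32 to 1.71 CPM in frozen pieces. The fat cell gene Cfd had 0.399, 0.743, 1.37 and 11.3 CPM in FFPE pieces, and 1 count over all frozen pieces. Acta1, of muscle, had 16.5 CPM in the FFPE piece of animal 44, and Cfd was highest in that piece too. Acta1, Cfd, the neutrophil genes S100a8 and S100a9 and the NK cell gene Nkg7, among others, had few counts in frozen pieces. They passed the filter for testing through the FFPE group alone, so the direction of their difference was set by the filter. Cela1, the 1 tested of 5 pancreas markers in the table, had 75.9 to 101 CPM in FFPE pieces, against 9.62 to 13.2 CPM in frozen pieces (2.98 ± 0.14). The whole pancreas list summed to 76.2 to 101 CPM in FFPE pieces and 9.64 to 13.2 CPM in frozen pieces. Its other members thus had next to no counts, and Cela1 alone does not mark pancreas cells here. The part of these cells in the other differences was not tested. Of 9 red cell markers, 6 had no count in any library, and Alas2 was the 1 tested. Its groups overlapped (0.39 ± 0.15, adjusted p = 0.0344), and its call was lost with library totals alone, with DESeq2 and without FFPE animal 42, FFPE animal 43 or any 1 of the frozen animals. It lay at -0.11 after the offset.

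Common reference genes did not all stay level. Of 14, 6 rose (42.9%) and 4 fell (28.6%), with a median of -0.04. These shares lie near those of all tested genes, 36.8% higher and 36.2% lower, and set the reference genes apart in neither direction. Ywhaz (1.65 ± 0.08), B2m (1.56 ± 0.07, -0.20 after the offset), Actb (0.89 ± 0.10), Pgk1 (0.75 ± 0.11) and Hprt (0.53 ± 0.08, -0.41 after the offset) were among those that rose. Polr2a (-0.96 ± 0.09, call lost at -0.21 after the offset), Tfrc (-0.60 ± 0.21, 0.28 after the offset) and Sdha (-0.49 ± 0.08) were among those that fell. Tfrc lost its call without FFPE animal 43 or frozen animal 44. Actb had 619, 727, 742 and 709 CPM in FFPE pieces, against 328, 389 and 414 CPM in frozen pieces.

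Tbp had 8.17 to 10.3 CPM in FFPE pieces and 9.43 to 9.90 CPM in frozen pieces (-0.07 ± 0.12), and Gusb had 33.9 to 43.1 CPM in FFPE pieces and 38.4 to 42.4 CPM in frozen pieces (-0.04 ± 0.09). Neither passed the test, though Tbp was at 1.09 and passed after the length and GC offset. Gusb passed as lower with library totals alone (-0.28) and with the offset and the block (-0.21). Gapdh and Ppia, which have many processed copies, had only 1.60 to 2.77 CPM and 0.878 to 1.06 CPM in FFPE pieces, against 1.70 to 3.66 CPM and 0.930 to 1.07 CPM in frozen pieces, and reads shared with those copies make both uncertain as levels. Gapdh (-1.52) and Ppia (-1.54) passed as lower after the offset.

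Control livers, fixed and frozen in the same ways, were compared in the same way. In them 8867 of 13034 tested genes (68.0%) passed, 4463 higher and 4404 lower. Of 12922 genes tested in both, 8274 were called in the same direction in both and 1 in opposite directions. These were 86.8% of the furan calls and 94.0% of the control calls among genes tested in both. Pearson's r across these genes was 0.97 and Spearman's rho 0.97, and the 2 comparisons share no library. The median for transcripts over 500 and up to 1000 nt was 2.22 in furan and 2.18 in control livers.

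Whether the preservation difference itself differed between furan and control livers was tested as an interaction over 14 libraries. No gene of 13739 (0.0%) passed with edgeR's quasi-likelihood F test, with a smallest adjusted p of 0.661. At an unadjusted p under 0.05 there were 455 genes (3.31%). DESeq2 called 1 gene, Smcr8 (interaction of -0.67, adjusted p = 0.00292). With the animal as a block, 2 genes passed, Dmbt1 (-7.22) and Ppp1r10 (-0.81), both with an adjusted p of 0.0317. Dmbt1 was at 0 counts in the frozen control libraries, so its fitted value is no measure of size. These 3 genes were named after their values had been seen. With the length and GC offset and the block together 12 genes passed, Dmbt1, Ppp1r10 and Rmrp among them. The interaction's absolute log2 value had a median of 0.14 and a 95th percentile of 0.82.

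**Figure D5:**
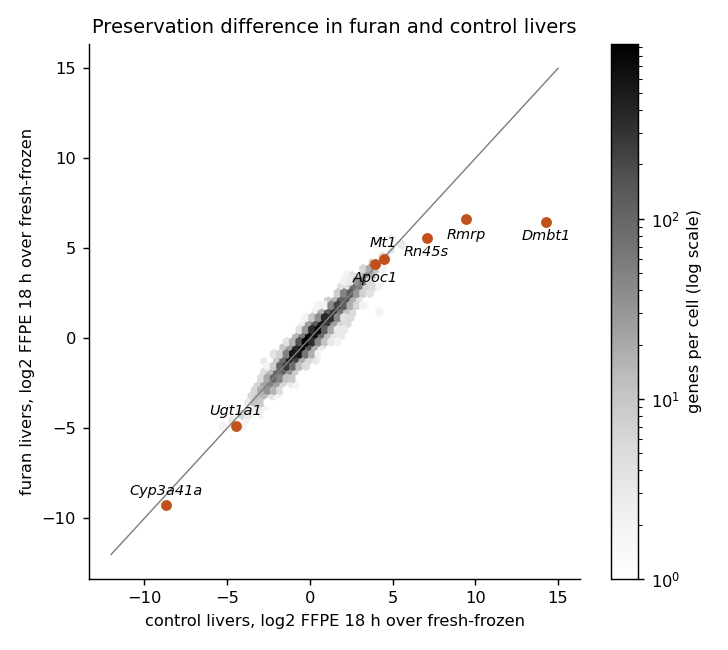
Log2 difference of FFPE 18 h over fresh-frozen pieces per gene in furan livers (vertical) against control livers (horizontal), with darker cells for more genes, the line of equality and 7 named genes. Cyp3a41a and Ugt1a1 lie near the line on the lower side, and Rn45s, Rmrp and Dmbt1 lie below it on the upper side, where the interaction passed for none of the 3 in the unblocked edgeR fit.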

How the data were processed

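Read counts per gene were deposited by the authors as raw counts for 24015 genes; per the submitters' processing notes, CASAVA 1.8.2, STAR 2.3.0 and featureCounts 1.4.4 were used with the mm9 build. Of 24 columns, 2 matched no label and were not used. Depth was 16269854 to 58048387 counts per library, and counting intervals (exact, 95%) cover counting error only.

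Genes were filtered with filterByExpr, scaled by TMM and tested with edgeR 4.0.16 (R 4.3.3) by the quasi-likelihood F test with Benjamini-Hochberg adjustment at 0.05, without a block. The interaction used furan and control livers. Shares of counts were compared by exact two-sided permutation. The procedure was tested on simulated data. DESeq2 1.42.0, the animal as a block (over livers with both pieces), other scalings, filters and left-out libraries were alternatives. Same-numbered pieces come from 1 animal, and their deviations correlated at 0.29, 0.23 and 0.26.

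Transcript features came from GENCODE M21 (GRCm38), matched by symbol for 23621 genes. No coordinates were carried between builds. For each gene the longest transcript with a RefSeq link was taken, or the longest of all where none had such a link. The members and gene lists were chosen with earlier results of these data known. Named genes were the 12 largest rises and falls (adjusted p under 0.05, at least 5 CPM in the higher group, no overlap), up to 4 members of each list with the smallest p, and fixed furan and reference genes. Others are said to be chosen after their values were seen. Some genes that the rule names are not reported here.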

Additional observations from a re-analysis of the deposited data

Results flagged for a closer look

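Of the values tested for 1 FFPE library that stands apart from the other furan livers, 15 were found (7.61%). Chance alone gives about 1 in 20 where values are independent. The values here share the same libraries, and some contain others, so 7.61% cannot be set against that rate. Of the 15, 9 belonged to animal 42, 3 to animal 44, 2 to animal 41 and 1 to animal 43. The causes were not tested.

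In animal 42, Rpph1 had 91.4 CPM (10.8 to 23.9 CPM in the other 3 FFPE libraries), Rmrp 71.5 CPM (9.58 to 16.6), Vaultrc5 8.24 CPM (0.665 to 1.56) and Snord17 7.84 CPM (1.4 to 1.88). The non-polyadenylated RNAs without Rn45s took 0.0155% of its counts (0.00208% to 0.00425% in the others). Spata5l1 had 0.878 CPM there (0.226 to 0.266) and Ugt1a5 5.40 CPM (2.79 to 3.06). Eif3f was low at 156 CPM (166 to 167), and ribosomal protein genes took a low 0.508% of counts (0.580% to 0.594%).

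In animal 44, Acta1 of muscle had 16.5 CPM (0 to 1.28), Cfd of fat cells 11.3 CPM (0.399 to 1.37) and the pericentral gene Oat 437 CPM (294 to 313). In animal 41, the stellate cell genes Reln at 46.6 CPM (57.5 to 59.7) and Hgf at 1.60 CPM (3.28 to 3.58) were low. In animal 43, Rpl39 had 66.8 CPM (61.1 to 62.1).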

How the results depend on the processing

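Of 13411 tested genes, 9785 passed between FFPE and frozen furan livers. A test against a fold of 1.5 left 6122 (3249 higher, 2873 lower), and 1 model of 6 groups, which shares their spread, gave 5837 (2756 higher, 3081 lower); leaving out 1 library gave 9053 to 9768. The interaction count was 0 and stayed 0 without any 1 library, but was 1 with DESeq2, 2 with the animal as a replicate block and 12 with the block and the length and GC offset. The block was fitted over the 3 livers with both pieces, so it also left out FFPE animal 42. It gave 5072 higher and 5250 lower genes, against 4851 and 4917 without animal 42 and without the block, and among named genes added Alb, Atp2a1, Ccnd1, Cyp2e1 and Upk3b to those that passed. The share of hepatocyte secreted proteins, 0.215 percentage points higher in FFPE libraries, was -0.185 without FFPE animal 41, and -0.185 to 0.667 over the libraries left out; with Rn45s out of the library totals it was 2.86. The causes were not tested.

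The length and GC offset was chosen after seeing the data. Of 174 named genes that passed and had a value under it, 25 changed sign, 15 of them called in the other direction, and 125 were still called with the same sign. These 25 genes, and Tbp, which did not pass without the offset, had the following log2 differences with the offset and with the offset and the block: Snord104 -0.96 and -1.17, Snora33 -0.21 and -0.47, Hist1h4h -0.21 and -0.87, Psmb6 -0.23 and -0.25, Snhg1 -0.37 and -0.46, Taldo1 -0.19 and -0.20, Bax -0.41 and -0.37, Tpi1 -0.36 and -0.37, Bst2 -0.68 and -0.66, Rora 0.17 and 0.21, Per3 0.0758 and 0.0837, Eci1 -0.28 and -0.21, Fah -0.10 and -0.12, Cyp2d10 -0.0676 and -0.0734, B2m -0.20 and -0.20, Apoa1 -0.48 and -0.49, Slc1a2 0.43 and 0.40, Sds -0.60 and -0.69, Cyp2f2 -0.18 and -0.17, Dpp4 0.39 and 0.39, Alas2 -0.11 and -0.13, Cd79b -0.0282 and -0.12, Nqo1 -0.23 and -0.17, Hprt -0.41 and -0.39, Tbp 1.09 and 1.19, and Tfrc 0.28 and 0.32. With the offset and block, Snhg12 (-0.0181) and Ccnd1 (0.13) also changed sign and, for Ccnd1, passed as higher. A further 24 named genes lost their call with the offset, with no change of sign: Aldoa, Apoa2, C1qa, C1qb, Cdkn1a, Fosl2, Gzma, Ier2, Igj, Lect2, Mki67, Mylpf, Nr1d2, Olfr1034, Pgk1, Polr2a, Psmb2, Reln, S100a8, S100a9, Snhg12, Tk1, Vaultrc5 and Vsig4. Alb, Cyp2e1, Gapdh and Ppia passed with it. Of all 9717 such genes, 2014 changed sign and 826 were called the other way. Among named genes the model of 6 groups lost 28 calls and the fold of 1.5 lost 18. FFPE libraries held fewer counts than frozen ones, and thinning all libraries to the smallest total gave 4753 higher and 4601 lower genes.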
